A study of Mus musculus with 6 samples.

Results

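The subunits of the mitochondrial respiratory chain were examined in primary mouse hepatocytes depleted of retinol saturase (RetSat), an enzyme that saturates a double bond of retinol. Genes were taken by symbol from the array annotation, with the stems Ndufa, Ndufb, Ndufc, Ndufs and Ndufv for complex I, Sdha to Sdhd for complex II, Uqcr and Cyc1 for complex III, Cox4 to Cox8 for complex IV, Atp5 for complex V, and Cycs for cytochrome c. This gave 91 of the 19938 genes tested, namely 41 in complex I, 4 in complex II, 9 in complex III, 19 in complex IV, 17 in complex V and Cycs. The stems also caught 8 genes known as assembly factors, Ndufaf1 to Ndufaf7 and Cox7a2l, so that 83 of the 91 were subunits in the strict sense. Ndufa4 and its isoform Ndufa4l2 were placed with complex IV, where the Ndufa4 protein is known to reside despite its name. The brightest probe set of each gene was used. Cox7c and Ndufb4, whose probe sets carry several symbols, were not analysed here.

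Hepatocytes, the metabolic cells of the liver, had been isolated by collagenase from a male wild-type C57BL/6J mouse which by the series design was 10 weeks old. The plating medium held 25 mM glucose. For the night after plating the cells received 1 nmol of siRNA in a lipid reagent, which was either a control siRNA (siControl) or siRNA against RetSat (siRetSat). RNA was taken 48 h after the next morning's medium change, and 100 ng was labelled for Affymetrix Mouse Gene 1.0 ST arrays, with 3 independent transfections per group. Both groups had therefore been through the same plating, transfection reagent and culture, and no untransfected cells were compared here. All cells came from 1 mouse, so the p-values hold the spread between its transfections and none between mice. Values were normalized log2 intensities. An adjusted p is that of limma with Benjamini-Hochberg adjustment over all 19938 genes, a gene was called at an adjusted p under 0.05, and n was 3 arrays per group throughout.

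The respiratory chain lies in the inner mitochondrial membrane. Complex I takes electrons from NADH and complex II takes them from succinate, both pass them to ubiquinone, complex III hands them to cytochrome c and complex IV gives them to oxygen, while complex V (ATP synthase) uses the proton gradient that complexes I, III and IV build to make ATP. Most of the subunits called core below carry redox centres or catalytic sites, but some carry none, such as the large core proteins of complex III. Accessory subunits surround the core. Hepatocytes are rich in mitochondria and depend on this chain for gluconeogenesis and urea synthesis. Most subunits are encoded in the nucleus, and the rest in the mitochondrial genome.

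The siRNA against RetSat lowered its target. Retsat had log2 values of 6.80, 7.04 and 7.01 on the siControl arrays and 4.62, 4.83 and 4.81 on the siRetSat arrays. The groups did not overlap, and 21.8% of the control signal was left (log2 fold change -2.20, SE 0.105, adjusted p = 0.000112 from limma). The 7 measured of 8 hepatocyte markers all lay above the level of dim genes, set at the 40th percentile of all genes (log2 4.33), and the albumin gene Alb lay between 12.9 and 13.1 on the 6 arrays. The mean of these 7 markers ranged from 9.63 to 9.82 in siControl and from 9.43 to 9.49 in siRetSat. Cps1 and Tat were called lower, and at an unadjusted p under 0.05 in limma 3 of the 7 were lower and 0 higher. Beside this list and the other marker lists, 3.56% of all genes were called, and 6.98% were higher and 7.52% lower at that unadjusted p. Of 6 macrophage markers 3 were dim (Csf1r, Adgre1 and Lyz2) and Cd14 was called higher (2 higher and 0 lower at an unadjusted p under 0.05). The mean of the 6 ranged from 5.57 to 5.69 in siControl and from 5.79 to 5.89 in siRetSat. Of 6 stellate cell and fibroblast markers 2 were dim and Acta2 was called lower (0 higher and 1 lower at an unadjusted p under 0.05). Their means were 5.65 to 5.91 and 5.26 to 5.97. None of 4 endothelial markers was called by limma (1 higher and 0 lower at an unadjusted p under 0.05, means 5.01 to 5.22 and 5.01 to 5.26). Of 4 bile duct markers Sox9 was called higher (2 higher and 0 lower at an unadjusted p under 0.05, means 5.83 to 5.91 and 5.88 to 6.02). Neither of 2 T and B cell markers was called or had an unadjusted p under 0.05 (means 3.92 to 4.37 and 4.02 to 4.44). The part of these cells in the results below was not tested, and in bulk RNA fewer cells of a type and less RNA per cell cannot be told apart.

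The promoters of these genes were searched for letters that the choice by symbol did not use. Factors long known for nuclear respiratory genes are NRF1, the ETS factor GABP (also called NRF2) and YY1. The RefSeq promoter table for GRCm38.p6, with 250 bases before and 50 after each gene's start, matched 74 of the 91 genes with 79 promoters, since 5 genes had more than 1. A gene was counted where any of its promoters held the motif. On either strand, the ETS letters CCGGAAG occurred in 24.3% of the 74 genes, against 12.9% of all protein-coding genes in the table and 9.93% of all its genes. The NRF1 letters GCGCANGCG occurred in 29.7%, against 9.63% and 7.03%. The YY1 letters AAGATGGCG occurred in 9.46%, against 2.14% and 1.64%. At least 1 of the 3 motifs was found in 39 of the 74 genes, 52.7% against 21.8% of protein-coding genes, and 8 genes had a promoter with 2 of them. Matches to different motifs overlapped in 0 of the 79 promoters. Read on the gene's own strand alone, the ETS share was 8.11% against 7.11% in protein-coding genes. The median GC content was 58.3% in these promoters and 56.3% in those of protein-coding genes. A match describes the letters and is not a binding site, and the shares were not tested.

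To show these letters, 1 promoter per complex with 2 of the motifs is given 5′ to 3′ on the gene's strand, with the motif matches in capitals (CTTCCGG is the ETS motif and CGCNTGCGC the NRF1 motif read from the other strand). Ndufs6 lies at chr13:73328433-73328732, Sdhd at chr9:50603800-50604099, Uqcr11 at chr10:80406772-80407071, Cox6a1 at chr5:115348909-115349208 and Atp5l at chr9:44920693-44920992, all on the minus strand of GRCm38.p6.
Ndufs6: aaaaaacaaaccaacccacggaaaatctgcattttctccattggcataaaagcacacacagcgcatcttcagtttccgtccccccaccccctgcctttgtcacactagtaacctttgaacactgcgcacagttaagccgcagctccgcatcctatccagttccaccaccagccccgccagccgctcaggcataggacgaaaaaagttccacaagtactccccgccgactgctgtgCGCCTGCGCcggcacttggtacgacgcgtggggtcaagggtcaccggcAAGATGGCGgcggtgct
Sdhd: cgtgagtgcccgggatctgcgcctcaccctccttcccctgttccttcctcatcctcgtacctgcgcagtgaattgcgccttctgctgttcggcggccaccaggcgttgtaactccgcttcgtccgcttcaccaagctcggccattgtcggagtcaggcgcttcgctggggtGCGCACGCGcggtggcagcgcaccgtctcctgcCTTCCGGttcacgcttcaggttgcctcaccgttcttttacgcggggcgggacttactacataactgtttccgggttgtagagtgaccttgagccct
Uqcr11: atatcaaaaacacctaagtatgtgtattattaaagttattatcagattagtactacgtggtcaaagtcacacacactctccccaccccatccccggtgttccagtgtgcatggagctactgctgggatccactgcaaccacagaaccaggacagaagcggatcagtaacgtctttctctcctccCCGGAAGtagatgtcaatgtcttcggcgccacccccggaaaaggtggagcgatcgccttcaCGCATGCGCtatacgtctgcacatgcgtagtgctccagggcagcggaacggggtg
Cox6a1: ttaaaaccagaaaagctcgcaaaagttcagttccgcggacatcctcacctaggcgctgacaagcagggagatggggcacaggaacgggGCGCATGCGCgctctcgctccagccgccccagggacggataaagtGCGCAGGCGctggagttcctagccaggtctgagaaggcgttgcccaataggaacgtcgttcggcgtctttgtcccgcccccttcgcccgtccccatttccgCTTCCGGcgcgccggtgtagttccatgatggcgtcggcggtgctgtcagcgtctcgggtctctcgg
Atp5l: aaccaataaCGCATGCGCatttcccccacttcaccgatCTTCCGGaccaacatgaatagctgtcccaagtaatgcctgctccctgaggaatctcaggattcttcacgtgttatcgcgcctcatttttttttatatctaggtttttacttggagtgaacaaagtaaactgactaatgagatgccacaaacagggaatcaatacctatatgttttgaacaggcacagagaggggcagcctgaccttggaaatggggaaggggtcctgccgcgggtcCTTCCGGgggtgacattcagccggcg
Ndufs6 holds an NRF1 and a YY1 match, and the other 4 hold ETS and NRF1 matches. None of these 5 genes was called by limma. Their log2 fold changes were 0.19 for Ndufs6, -0.07 for Sdhd, 0.30 for Uqcr11, 0.10 for Cox6a1 and 0.36 for Atp5l. The median log2 fold change was 0.072 in the genes with an NRF1 match and 0.075 in those without.

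Of the 91 genes 1 was called, Uqcrc2 of complex III, which was higher in siRetSat, and none was called lower. This is 1.10% of the 91, whereas 3.56% of all 19938 genes were called (1.91% higher and 1.66% lower). Of the 91 genes 87 lay above the dim level, and of all genes above it 5.77% were called. At an unadjusted p under 0.05 in limma, 15 of the 91 were higher and 5 lower. These are 16.5% and 5.49%, beside 6.98% and 7.52% of all genes and 9.98% and 11.9% of those above the dim level. The groups did not overlap in 18 genes that were higher and 8 that were lower in siRetSat, 19.8% and 8.79%, where all genes gave 9.33% and 10.1% and those above the dim level 12.6% and 15.6%. With the study's own cutoffs on unadjusted P and fold change, limma passed 8 genes, all higher. This is 8.79% of the 91, beside 9.05% of all genes (4.47% higher and 4.58% lower) and 14.0% of those above the dim level. The methods' t-test with the same cutoffs passed 3, all higher, which is 3.30% beside 7.15% of all genes (3.60% higher and 3.55% lower) and 11.2% of those above the dim level.

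The median log2 fold change was 0.077 over the 91 genes and 0.0033 over all genes tested, and 62 of the 91 (68.1%) had a log2 fold change above 0, beside 50.8% of all genes. The largest was 0.61 and the lowest -0.33. In 79 of the 91 genes the 95% interval lay wholly within a 1.5-fold change in either direction, in all 91 within a 2-fold change, but in only 23 within the fold that the study used as its cutoff. The estimate of Uqcrc2 alone exceeded 1.5-fold. In the plot of all 91 intervals, most span 0 on both sides.

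**Figure D1:**
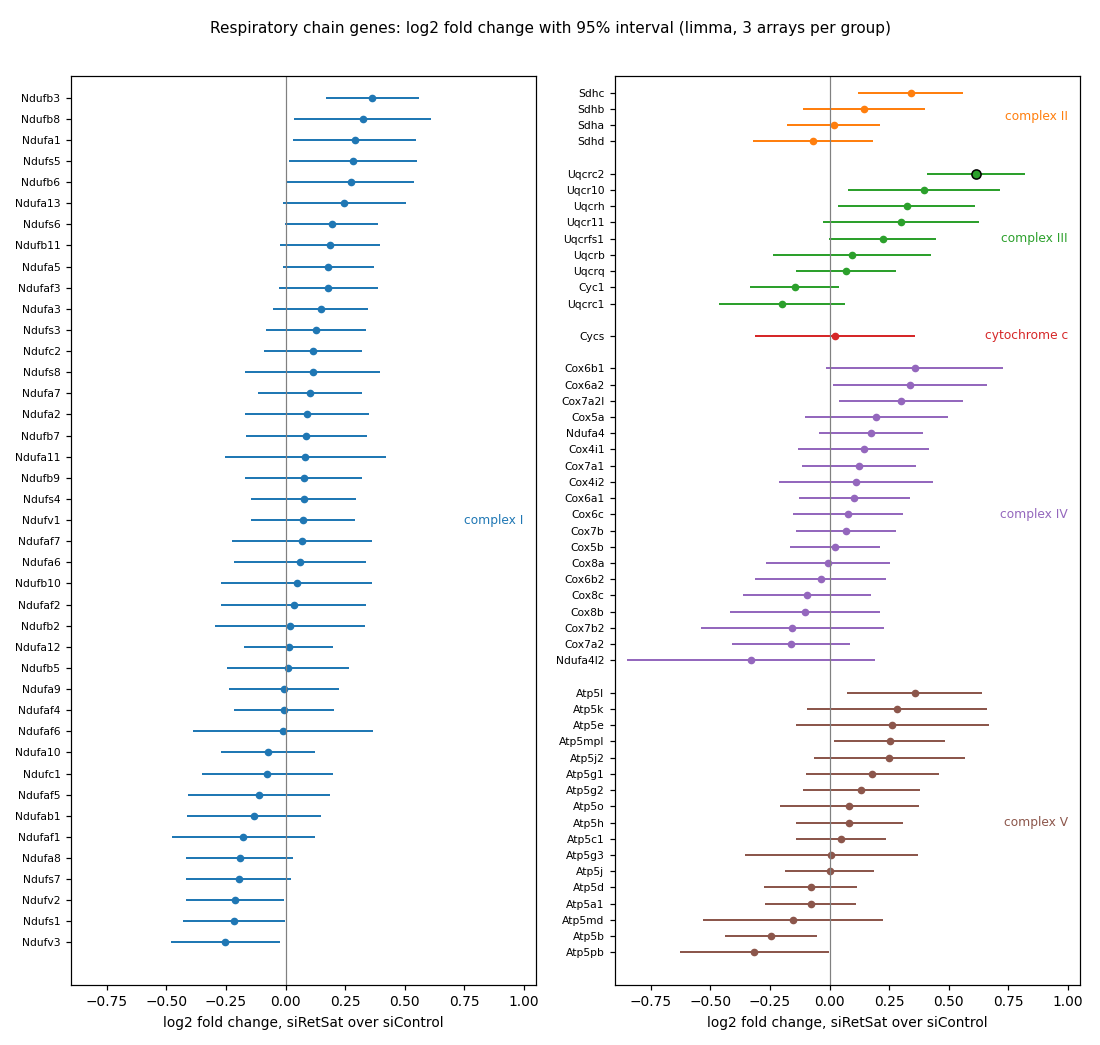
Log2 fold change (x axis, siRetSat over siControl, limma) of each of the 91 respiratory chain genes, ordered within each complex and named on the y axis, with its 95% interval as a line (3 arrays per group). The black outline marks Uqcrc2 at 0.61, the called gene, and most other intervals cross 0.

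The siControl arrays differed among themselves in these genes. The siControl 2 array gave the lowest of the 6 values in 42 of the 91 genes, 46.2% beside 13.7% of all genes. The median deviation of the 91 genes from their own mean over the 6 arrays was 0.02, -0.11 and -0.02 in siControl and 0.02, 0.04 and 0.05 in siRetSat. Over all genes the siControl 2 array did not stand apart, with a median deviation of -0.0033. Without siControl 2 the median log2 fold change of the 91 genes was 0.03 with 57 above 0, and without siRetSat 3 it was 0.048 with 59 above 0. Where limma weighted the arrays by their fit across all genes, siControl 2 and siRetSat 2 got the highest weights, and 22 of the 91 genes were called higher (24.2% beside 7.31% of all genes) and 6 lower (6.59% beside 7.26%). Over the fits without 1 array the median ranged from 0.03 to 0.11, and the median of all genes from -0.02 to 0.03.

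**Figure D2:**
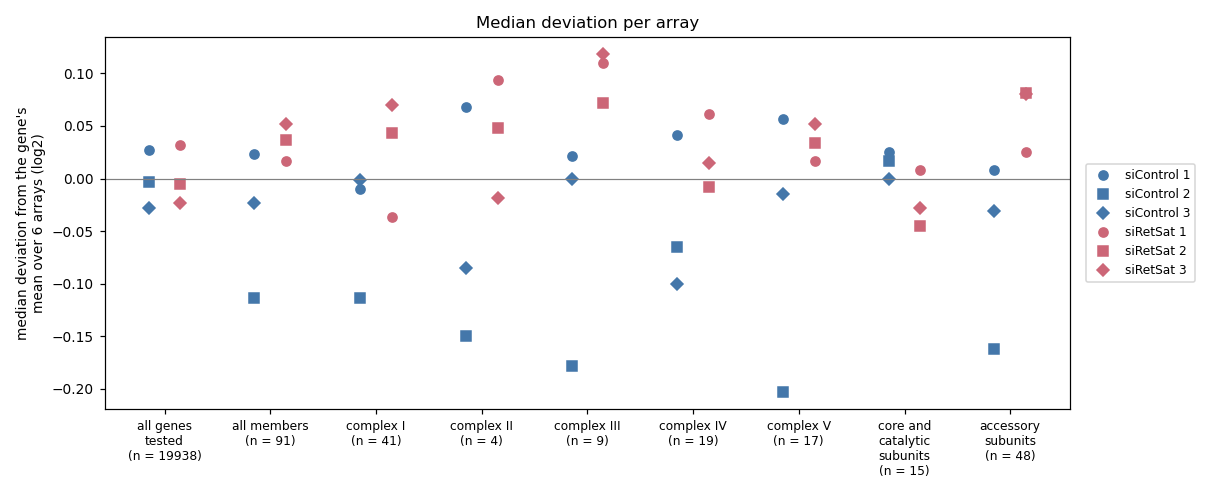
Median deviation of each set of genes from the gene's own mean over 6 arrays (y axis, log2), for each siControl array (blue) and siRetSat array (red), with circle, square and diamond for replicates 1, 2 and 3. The siControl 2 array (blue square) lies at -0.11 for the 91 genes and at -0.16 for accessory subunits, but at 0.02 for core and catalytic subunits.

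Core and accessory subunits were read apart because they have different roles. The 15 core and catalytic subunits, which are the core subunits of complexes I, II and III and the alpha, beta and gamma subunits of complex V, had a median log2 fold change of 0.017, with 8 above 0 and 7 below. The 48 accessory subunits were those of complexes I, III and IV and the 5 small subunits of the membrane part of complex V. They had a median of 0.098, with 39 above 0 and 9 below. The c-ring and peripheral stalk genes of complex V were in neither group. At an unadjusted p under 0.05, 2 core subunits were higher and 3 lower, against 10 and 1 of the accessory subunits, where 6.98% of all genes were higher and 7.52% lower. The siControl 2 array was the lowest of the 6 in 28 of the 48 accessory and 5 of the 15 core subunits, and without it the median of the accessory subunits was 0.062. Without siControl 1 this median was 0.16. The median of the core subunits went from -0.02 to 0.04 over the fits without 1 array. The difference between these groups of genes was not tested.

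The called gene belonged to complex III. Uqcrc2, core protein 2, had log2 values of 10.31, 10.37 and 10.29 in siControl and 10.84, 10.95 and 11.02 in siRetSat. All siRetSat values lay above all siControl values, and the gap between the groups was wider than the range within either. The log2 fold change was 0.61 (SE 0.0877, 95% interval 0.41 to 0.81, adjusted p = 0.0095 from limma), a rise of 53.0%, and the two-sided exact permutation test gave p = 0.1, the smallest that 3 arrays against 3 allow. The call was kept in 4 of the 6 fits without 1 array, with log2 fold changes of 0.57 to 0.66 over all 6, and missed the threshold without siControl 2 (adjusted p = 0.054) and without siRetSat 2 (adjusted p = 0.064).

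Its partner Uqcrc1, core protein 1, had log2 values of 10.45, 10.47 and 10.31 in siControl and 10.42, 10.08 and 10.13 in siRetSat. The groups overlapped, since siRetSat 1 lay within the siControl range. The log2 fold change was -0.20 (95% interval -0.46 to 0.06, adjusted p = 0.517). Cyc1 encodes cytochrome c1, the haem subunit that passes electrons to cytochrome c. It had 10.22, 10.20 and 10.26 in siControl and 10.07, 10.06 and 10.11 in siRetSat on the log2 scale. Its groups stood apart, but the difference of -0.15 was small and its interval ran from -0.33 to 0.04 (adjusted p = 0.487). Uqcrfs1, the Rieske iron-sulfur protein, had log2 values of 8.18, 7.98 and 7.98 in siControl and 8.36, 8.23 and 8.22 in siRetSat. The groups were also apart here, with a log2 fold change of 0.22 that was not called (adjusted p = 0.338).

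The 5 accessory subunits of complex III all had log2 fold changes above 0, from 0.07 for Uqcrq to 0.40 for Uqcr10, with a median of 0.30. Uqcr10 had log2 values of 7.65, 7.40 and 7.52 in siControl and 7.63, 8.06 and 8.07 in siRetSat. Only siRetSat 1 lay within the siControl range, and without that array Uqcr10 was called (adjusted p = 0.039), whereas with all arrays it was not (adjusted p = 0.211). Uqcrh, the hinge protein at cytochrome c1, had log2 values of 10.00, 9.55 and 9.79 in siControl and 10.07, 10.18 and 10.06 in siRetSat. All siRetSat values were the higher ones, the log2 fold change was 0.32 and the adjusted p was 0.264. Uqcr11 had log2 values of 7.50, 6.99 and 7.49 in siControl and 7.64, 7.63 and 7.61 in siRetSat, so that its log2 fold change of 0.30 (adjusted p = 0.396) leaned on the low siControl 2 value. Over the 9 genes of complex III the median was 0.22, and 0.13 without siControl 2.

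**Figure D3:**
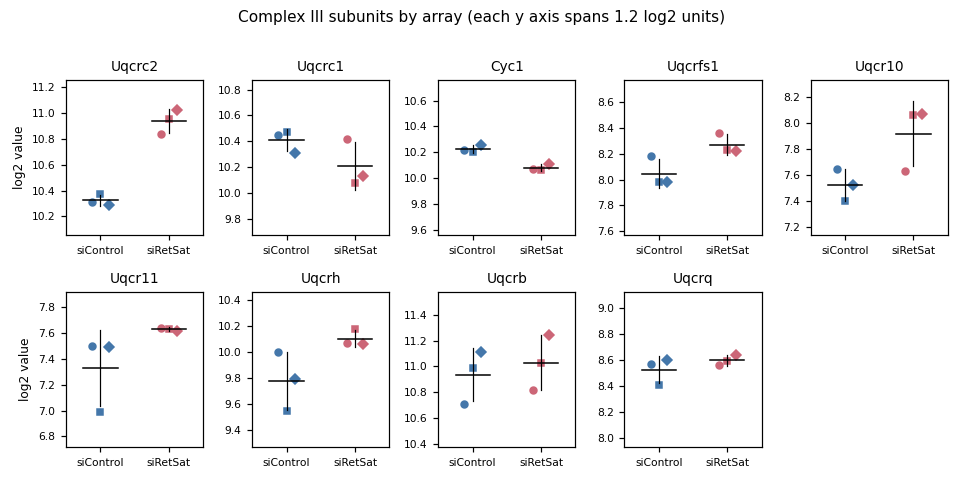
Log2 value (y axis) of the 9 complex III genes on each array, siControl in blue and siRetSat in red, with circle, square and diamond for replicates 1, 2 and 3, the mean as a bar and the SD as a line (n = 3). Each panel has its own axis of the same span. Uqcrc2 rises by 0.61, and the groups of Uqcrc1 overlap.

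Complex II, succinate dehydrogenase, also belongs to the citric acid cycle and has its 4 subunits all encoded in the nucleus. Sdha, the flavoprotein that oxidises succinate, had log2 values of 10.68, 10.64 and 10.62 in siControl and 10.74, 10.61 and 10.64 in siRetSat. The groups overlapped closely, with a log2 fold change of 0.017 and a 95% interval of -0.18 to 0.21 (adjusted p = 0.980). Sdhc, a membrane anchor of the complex, had log2 values of 9.09, 8.89 and 8.86 in siControl and 9.25, 9.29 and 9.32 in siRetSat. Its groups did not overlap and its log2 fold change of 0.34 was the highest of the complex (95% interval 0.12 to 0.56), but it was not called (adjusted p = 0.111). Sdhb, the iron-sulfur subunit, differed by 0.14 on the log2 scale (adjusted p = 0.694) and Sdhd, the other anchor, by -0.07 (adjusted p = 0.888), and the groups overlapped in each.

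Complex I, NADH dehydrogenase, had a median log2 fold change of 0.073 over 41 genes, with 28 above 0 and 13 below. None was called by limma, and at an unadjusted p under 0.05 there were 6 higher and 3 lower of 41, where all genes gave 6.98% and 7.52%. The median was 0.022 without siControl 2, 0.043 without siRetSat 3, 0.11 without siRetSat 1 and 0.13 without siControl 1. The smallest p was that of Ndufb3, an accessory subunit of the membrane arm. It had log2 values of 6.87, 6.88 and 6.97 in siControl and 7.22, 7.28 and 7.31 in siRetSat. The groups were clearly apart, and the log2 fold change was 0.36 (SE 0.0831, 95% interval 0.17 to 0.55, adjusted p = 0.0573). Among the other accessory subunits, Ndufb8 had log2 values of 7.32, 7.10 and 7.29 against 7.33, 7.62 and 7.73 in siRetSat, and Ndufa1 had 8.92, 8.57 and 8.81 against 8.99, 9.05 and 9.13. Each had all siRetSat values above all siControl values, by only 0.01 in Ndufb8 at the nearest pair, and neither was called (log2 fold change 0.32 with adjusted p = 0.269, and 0.29 with adjusted p = 0.264). Ndufv3, an accessory subunit of the NADH-binding module, gave the lowest value of the complex, with 7.44, 7.53 and 7.40 in siControl and 7.21, 7.33 and 7.07 in siRetSat (log2 fold change -0.25, adjusted p = 0.273).

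The core subunits of complex I, which as a set hold the flavin and the iron-sulfur clusters, did not move one way. Ndufs1, the largest subunit, had log2 values of 9.29, 9.44 and 9.42 in siControl and 9.10, 9.14 and 9.26 in siRetSat. Neither group reached into the other, although siControl 1 and siRetSat 3 differed by only 0.03. The log2 fold change was -0.22 (95% interval -0.43 to -0.01, adjusted p = 0.322). Ndufv2, an iron-sulfur subunit of the NADH-binding module, had 8.95, 9.05 and 8.97 against 8.68, 8.82 and 8.83 in siRetSat, and Ndufs7, which carries the cluster that hands electrons to ubiquinone, had 9.32, 9.26 and 9.20 against 9.17, 8.94 and 9.08. In both the siRetSat values all lay below the siControl values, with log2 fold changes of -0.21 (adjusted p = 0.310) and -0.20 (adjusted p = 0.405). Ndufs3, Ndufs8 and Ndufv1, the last of which binds NADH and the flavin, had overlapping groups and log2 fold changes of 0.13, 0.11 and 0.07. Without siControl 2 Ndufs8 was at 0.012 and Ndufv1 at 0.018, without siControl 1 Ndufs8 was at 0.23, and Ndufv1 was at 0.035 without siRetSat 3 and at 0.12 without siRetSat 1. The 6 core subunits had a median of -0.06, the 28 accessory subunits one of 0.085, and the 7 assembly factors Ndufaf1 to Ndufaf7 one of -0.0067.

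In complex V the catalytic and the membrane part were read apart. Atp5b encodes the beta subunit, which carries the catalytic sites of the F1 head. It had log2 values of 12.06, 12.17 and 12.15 in siControl and 11.88, 11.85 and 11.91 in siRetSat. All siRetSat values were below all siControl values, and the log2 fold change was -0.25 (SE 0.0823, 95% interval -0.44 to -0.06), which was not called (adjusted p = 0.192). The alpha subunit gene Atp5a1 differed by -0.08 (adjusted p = 0.803) and the gamma subunit gene Atp5c1 by 0.05 on the log2 scale (adjusted p = 0.903). Atp5pb, subunit b of the peripheral stalk, had log2 values of 10.56, 10.89 and 10.87 in siControl and 10.23, 10.55 and 10.59 in siRetSat. In both groups the array numbered 1 was the lowest, the groups overlapped, and the log2 fold change was -0.32 (adjusted p = 0.328), while the dimmer of its 2 probe sets gave -0.097.

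Of the 5 small subunits of the Fo membrane part 4 had log2 fold changes above 0, with a median of 0.25 over the 5. Atp5l, subunit g, which sits where ATP synthase dimers meet, had log2 values of 8.84, 8.59 and 8.97 in siControl and 9.01, 9.21 and 9.25 in siRetSat. The groups did not overlap, and the log2 fold change was 0.36 (95% interval 0.08 to 0.64, adjusted p = 0.203). Atp5mpl, a small subunit of the same part, had 10.80, 10.50 and 10.62 in siControl and 10.86, 10.91 and 10.91 in siRetSat, again apart (log2 fold change 0.25, adjusted p = 0.286). In 4 of these 5 genes siControl 2 was the lowest array. The 3 genes of the c-ring, Atp5g1 to Atp5g3, encode the same mature protein and had log2 fold changes of 0.18, 0.13 and 0.0067, each with siControl 2 lowest. Over the 17 genes of complex V the median was 0.083, with 11 above 0 and 5 below. It was 0.18 without siControl 1 and 0.037 without siRetSat 3.

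Complex IV, cytochrome c oxidase, holds subunits that exist as widely expressed and tissue-restricted isoforms, and the array measured both. None of its 19 genes was called by limma. At an unadjusted p under 0.05, 2 of the 19 were higher and 0 lower, where all genes gave 6.98% and 7.52%. The median log2 fold change was 0.077, or 0.035 without siControl 2. The widely expressed forms were far above the dim level of 4.33 on all arrays, and their log2 fold changes were 0.14 for Cox4i1, 0.10 for Cox6a1, 0.36 for Cox6b1, -0.16 for Cox7a2, 0.07 for Cox7b, -0.0067 for Cox8a and 0.17 for Ndufa4. These moved with single siControl arrays. Without siControl 2 Cox4i1 was at 0.045, Cox6a1 at 0.025 and Cox7b at 0.018, and without siControl 1 Cox4i1 was at 0.26 and Cox7a2 at -0.26. Cox6b1 had log2 values of 10.27, 9.60 and 9.90 in siControl and 10.20, 10.37 and 10.27 in siRetSat. The groups overlapped, and without siControl 2, the lowest value, the log2 fold change was 0.20.

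Of the 8 tissue-restricted isoforms, 4 lay below the dim level in the mean of the 6 arrays, which were Cox6b2 and Cox8c, known from testis, Cox7b2 and Cox8b. Their log2 fold changes were -0.04, -0.09, -0.16 and -0.10. Cox4i2 and Cox7a1, known from lung and from heart and muscle, lay above it, with overlapping groups and log2 fold changes of 0.11 and 0.12. Cox6a2, the heart and muscle form of subunit VIa, had log2 values of 4.61, 4.77 and 4.63 in siControl and 5.32, 4.83 and 4.87 in siRetSat. The siRetSat 1 value was well above the others, the groups were apart, and the log2 fold change was 0.34 (adjusted p = 0.313), or 0.18 without that array. Ndufa4l2, known as a hypoxia-induced paralog of Ndufa4, was above the dim level with 7.11, 8.01 and 7.10 in siControl and 7.08, 7.10 and 7.05 in siRetSat. Its log2 fold change of -0.33 (adjusted p = 0.638) rested on the high siControl 2 value and was -0.03 without it.

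**Figure D4:**
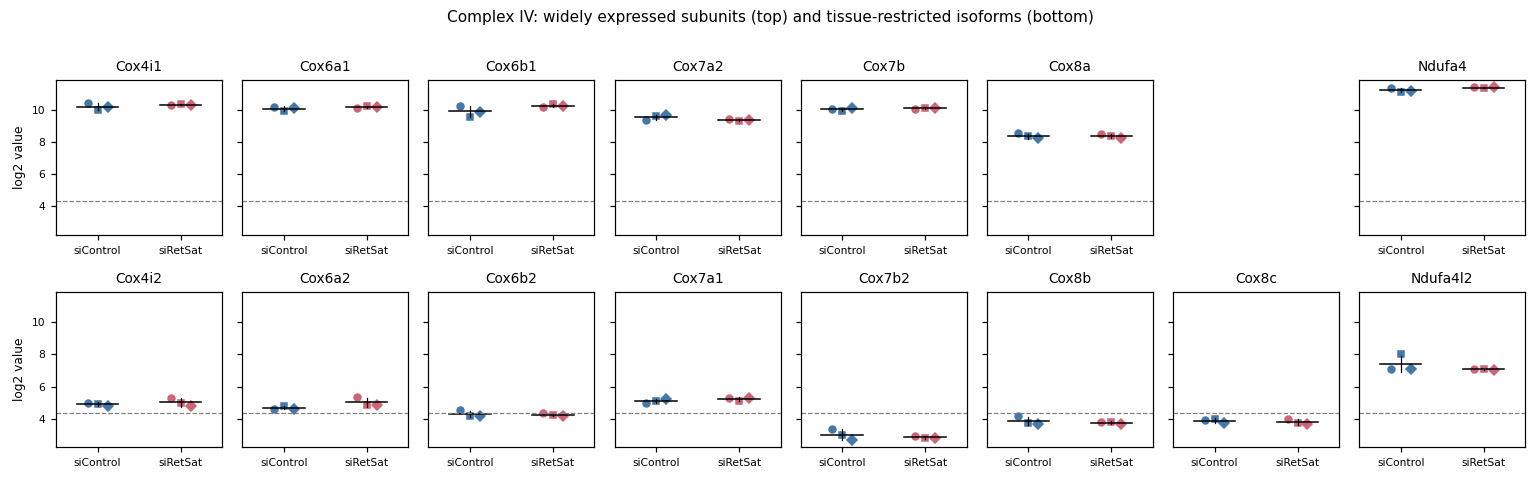
Log2 value (y axis) of widely expressed complex IV subunits (top) and tissue-restricted isoforms of the same subunits (bottom) on each array, siControl in blue and siRetSat in red, with circle, square and diamond for replicates 1, 2 and 3, the mean as a bar and the SD as a line (n = 3). The dashed line is the dim level of 4.33, with Cox6b2, Cox7b2, Cox8b and Cox8c below it in their means.

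Cox7a2l, named above among the assembly factors, had log2 values of 9.47, 9.48 and 9.75 in siControl and 9.75, 9.99 and 9.86 in siRetSat. The groups met at 9.75, and the log2 fold change was 0.30 (adjusted p = 0.255). Cycs, the electron carrier between complexes III and IV, had 9.89, 10.07 and 10.21 in siControl and 9.81, 10.12 and 10.31 in siRetSat. Both groups covered nearly the same range, with a log2 fold change of 0.02 (95% interval -0.31 to 0.35).

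The 91 genes had 118 probe sets in all, and 18 of the genes had several. Log2 fold changes of the probe sets of a gene differed by under 0.1 in 13 of these 18 genes. They differed by 0.1 or more in 5, by 0.25 in Cycs and 0.22 in Atp5pb among them, and changed sign in 2. In Cycs the difference came from a probe set with a mean log2 value of 3.45, below the dim level, while the brighter probe sets both gave 0.023.

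Other genes that make or serve the chain were read beside these. Of the 13 mitochondrially encoded subunits 2 were measured, ND3 of complex I and COX2 of complex IV. ND3 had log2 values of 10.67, 10.91 and 10.97 in siControl and 10.32, 10.61 and 10.69 in siRetSat, and the groups overlapped (log2 fold change -0.31, adjusted p = 0.312). COX2 had 11.52, 11.86 and 11.90 against 11.22, 11.65 and 11.77 in siRetSat (log2 fold change -0.21, adjusted p = 0.695). In both genes and both groups the array numbered 1 was the lowest.

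Of the 43 measured of 49 assembly factors, 7 of which are among the 91 genes, 0 were called by limma, 3 were higher and 3 lower at an unadjusted p under 0.05, and the median log2 fold change was 0.02. Beside this list and the next ones, 3.56% of all genes were called, and 6.98% were higher and 7.52% lower at that unadjusted p. Atpaf1, a chaperone of the F1 head, had log2 values of 7.27, 7.67 and 7.65 in siControl and 7.88, 8.12 and 8.08 in siRetSat (log2 fold change 0.50, adjusted p = 0.0943). Cox20, a chaperone of the mitochondrially encoded COX2, had 7.20, 7.07 and 6.97 in siControl and 6.75, 6.71 and 6.53 in siRetSat (log2 fold change -0.42, adjusted p = 0.0742). The groups were apart in both, in opposite directions. The 12 measured of 15 genes of coenzyme Q synthesis had a median of 0.02 with 0 called by limma (0 higher and 2 lower at an unadjusted p under 0.05), the smallest p being that of Pdss2 at -0.30. The 13 measured of 14 genes of the citric acid cycle had a median of 0.00 with 0 called and 0 at an unadjusted p under 0.05, with Idh3g at 0.22 and Dlst at -0.18.

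Among 21 measured of 22 regulators of mitochondrial genes 0 were called by limma, 0 were higher and 6 lower at an unadjusted p under 0.05, and the median log2 fold change was -0.07. Of all genes 7.52% were lower at an unadjusted p under 0.05. In 7 of the 21 the groups did not overlap, all lower in siRetSat, where 10.1% of all genes and 15.6% of those above the dim level were lower without overlap. Tfb2m, a factor that starts mitochondrial transcription, had log2 values of 8.43, 8.79 and 8.83 in siControl and 8.10, 8.17 and 8.37 in siRetSat (log2 fold change -0.47, adjusted p = 0.114), and it was called without siControl 1 (adjusted p = 0.0454). Of the factors whose letters were counted above, Nrf1 differed by 0.00 and Yy1 by 0.13 on the log2 scale with overlapping groups, and of the GABP subunits Gabpa differed by -0.34 and Gabpb1 by -0.28 with groups apart, none of them called. Gabpb2 differed by -0.28 (adjusted p = 0.152), and Mterf4, which acts on mitochondrial ribosome assembly, by -0.50 on the log2 scale (adjusted p = 0.0969). Tfb2m, Gabpb2 and Mterf4 had groups that did not overlap.

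The 77 genes of the mitochondrial ribosome, which translates the mitochondrially encoded subunits, had a median of 0.05 with 47 above 0. Of the 77, 3 were called, all lower in siRetSat. Of all genes 3.56% were called (1.66% lower), and of those above the dim level 5.77% (2.73% lower). At an unadjusted p under 0.05, 4 of the 77 were higher and 8 lower, beside 6.98% and 7.52% of all genes and 9.98% and 11.9% of those above the dim level. The groups did not overlap in 10 that were higher and 8 that were lower. All genes gave 9.33% and 10.1% here, and those above the dim level 12.6% and 15.6%. Mrps15 fell by 0.78 on the log2 scale, from 9.83, 9.98 and 9.97 to 9.03, 9.16 and 9.24 (adjusted p = 0.0047 from limma). Mrps26 fell by 0.69 (adjusted p = 0.0056) and Mrpl10 by 0.50 (adjusted p = 0.0289), the latter still called without siRetSat 1 (adjusted p = 0.0195) but in none of the other 5 fits without 1 array (adjusted p from 0.0785 to 0.144). In the plot of these lists, Uqcrc2 is the highest point and Mrps15 and Mrps26 are the lowest.

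**Figure D5:**
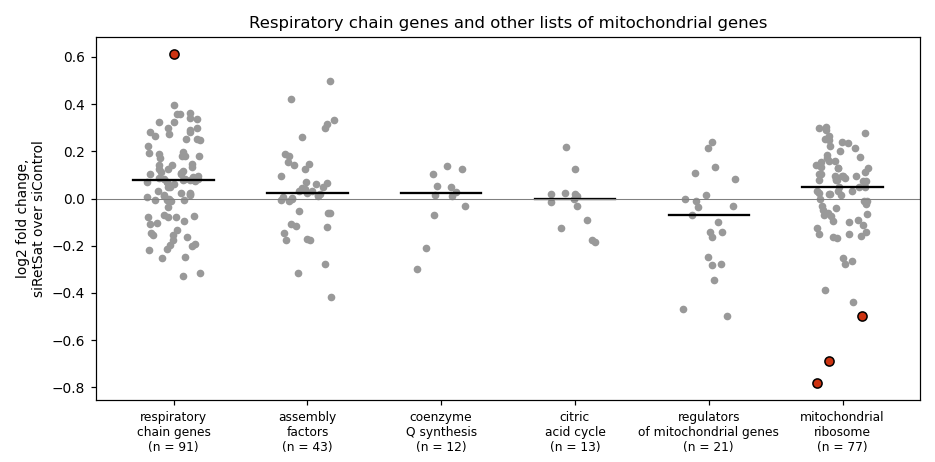
Log2 fold change (y axis, siRetSat over siControl, limma) of the 91 respiratory chain genes and of 5 other lists of mitochondrial genes, 1 point per gene, with the list's median as a bar. Red points with an outline are the called genes, Uqcrc2 at 0.61 and Mrps15, Mrps26 and Mrpl10 at -0.78, -0.69 and -0.50.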

How the data were processed

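Gene expression was measured on 6 Affymetrix Mouse Gene 1.0 ST arrays, 3 siControl and 3 siRetSat. The deposited table holds log2 intensities, normalized by the authors, of 35556 probe sets. Per the submitters' processing notes the tools were Partek 6.6 and RMA. RMA subtracts background, sets the same overall distribution on each array and combines the probes of a set, so a change shared by most genes would not be seen. The sources used here do not name a genome build or annotation version. Array medians lay between 4.29 and 4.50 on the log2 scale, and the number of arrays limits the precision.

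Probe sets were named by the platform annotation (21789 with 1 symbol, 1621 with several, 12146 with none), and symbols were updated through RefSeq's table for GRCm38.p6 (21698 matched, 91 not), which gave the same 91 respiratory chain genes. The brightest probe set per gene was kept. The test was limma (version 3.58.1, R 4.3.3; lmFit, then eBayes, two-sided, with no covariates) with Benjamini-Hochberg adjustment over 19938 genes. The step was tested on simulated data with 3 arrays per group, in which 200 of 19938 genes were changed and the arrays varied independently. It recovered 1% of the genes changed 1.25-fold, 33.6% of those changed 1.5-fold and 85.8% of those changed 2-fold. On average 4.69% of the simulated calls were false. Most changes of 1.25-fold and 1.5-fold were thus missed in the simulation, so a gene not called here may still have changed. In these data 710 genes were called and deviations of some arrays correlated, so the simulated rates need not hold for them. The respiratory chain genes, their roles, the other lists and the motifs were chosen with earlier results of these data known. Named were Retsat, Ndufs1, Sdha and Uqcrc1, every called gene, per complex the 3 smallest p and the highest and lowest fold change, all complex II and the core subunits, the isoform pairs, the 3 smallest p of a list at most, and some genes with groups that did not overlap. Uqcr11, Cox6b1, Gabpa, Gabpb1, Nrf1 and Yy1 were described, and the promoters chosen, after their values were seen. By the labels the mouse was 10 weeks old and the siRNA came from Dharmacon; the methods name another age and supplier.

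Alternatives changed the test (the methods' t-test, the study's cutoffs, an intensity trend of the variance, array weights, a block for the replicate number), the values (median centring, repeated quantile normalization, subtraction of each array's 5th percentile with values floored at 16), the features (mean over a gene's probe sets, all probe sets, no dim genes) and the arrays (leaving out 1, or both of 1 number). The main test did not pair the arrays by replicate number, and whether the numbers mark pairs is not known. Deviations of same-numbered arrays correlated at 0.55, 0.04 and 0.54 over all genes. Those of siControl 1 with siRetSat 3 and of siControl 3 with siRetSat 1 correlated at -0.53 and -0.57. Python 3.11.15, pandas 2.3.3 and matplotlib 3.10.9 were used for tables and plots.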

Additional observations from a re-analysis of the deposited data

How the results depend on the processing

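The call of Uqcrc2 held in 15 of 19 alternatives and no value that turned sign was called. With array weights, which ranged from 0.317 to 3.90 and were highest for siRetSat 2 and siControl 2, 2905 genes were called, 22 of the 91 genes higher and 6 lower, 6 assembly factors, 5 regulators and 18 mitochondrial ribosome genes, and medians were 0.13 for the 91 genes, 0.14 for complex I and 0.20 for complex V. With the replicate number as a block, 1541 genes were called, 2 of the 91 higher (Ndufb3 and Uqcrc2) and 1 lower (Atp5pb). Also called were 3 assembly factors, 3 regulators and 5 ribosome genes. Over all genes siControl 1 and siControl 3 correlated best with the siRetSat array of their own number, and siControl 2 did not. Whether the numbers pair the arrays was not settled. With a variance trend the counts were 1078 genes, 3 higher, 1 lower, 2 assembly factors and 1 regulator. With quantile normalization again 2 of the 91 were higher, with 1 assembly factor and 1 regulator. Without dim genes 2 were higher, with 1 assembly factor. Background subtraction gave 445 genes and 2 higher, all probe sets 271 genes, median centring 342, and the methods' t-test after Benjamini-Hochberg 196 genes and 1 ribosome gene. The study's cutoffs passed 1805 genes by limma (8 of the 91 higher, 4 assembly factors, 3 regulators, 5 ribosome genes) and 1425 by the t-test (3, 4, 2 and 5). Without both arrays numbered 1, 3 of the 91 were higher, with 1 assembly factor and 1 regulator. Without both numbered 2, 15 genes, 0 of the 91 and 0 ribosome genes were called, and medians were 0.02 for the 91 genes, 0.00 for complex I and 0.13 for complex III. Without both numbered 3, 111 genes, 0 of the 91 and 0 ribosome genes were called. Without 1 array, 207 to 646 genes were called, 0 to 2 of the 91 higher and 0 to 1 regulators, and the medians ranged from 0.13 to 0.29 for complex III and 0.037 to 0.18 for complex V. The fewest genes, 207, were called without siControl 2. Values that turned sign were all near 0: Sdha at -0.017 with array weights and -0.005 without both arrays numbered 1, Sdhd at 0.03, Cox6b2 at 0.035, Cox8b at 0.005 and Cox8a at 0.01 without both numbered 1, Cox6b2 at 0.024 with array weights, Cox8a at 0.023 with quantile normalization again, Ndufs8 at -0.03, Cox8c at 0.005 and Cox6a1 at -0.015 without both numbered 2, and Cycs at -0.015 without both numbered 3. Without 1 array Sdha ranged from -0.022 to 0.043, Sdhd from -0.13 to 0.04, Cycs from -0.092 to 0.16, Cox4i2 from -0.032 to 0.23, Cox6b2 from -0.11 to 0.08, Cox7b2 from -0.33 to 0.022, Cox8b from -0.20 to 0.043 and Cox8a from -0.08 to 0.075. The cause of these changes was not tested.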
